A study of Mus musculus with 12 samples.

Results

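Claudins are the membrane proteins that set how tight a tight junction is, and 10 of them were followed here through mouse lung with and without a treatment labelled CRE and with and without floxed *Rhoa*. The members were taken as a list of symbols, *Cldn1*, *Cldn3*, *Cldn4*, *Cldn5*, *Cldn7*, *Cldn10*, *Cldn12*, *Cldn15*, *Cldn18* and *Cldn23*, matched to Ensembl rows of the read count table. They are 10 of the 54532 rows of that table, and all 10 were among the 17473 genes with enough counts to be tested. The table holds 33 protein-coding claudin genes, of which 13 had no count in any library and 13 were tested.

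The samples were whole lung RNA from mice of 2 genotypes. Mice labelled Cc10-Cre are called WT here, and mice labelled Cc10-Cre;Rhoafl/fl are called CKO. All groups, controls included, therefore carry Cc10-Cre, a recombinase driven by the promoter of the club cell secretory protein gene *Scgb1a1*, so that deletion of floxed *Rhoa* would be limited to cells that use this promoter. Each genotype was given PBS or CRE, which the labels do not spell out and which is distinct from the recombinase, and 3 libraries were made for each of the groups WT_PBS, WT_CRE, CKO_PBS and CKO_CRE. The labels give a single batch number for every library, and no age, strain or time. They do not say that the 3 libraries of a group came from separate animals, so the p-values measure the spread between these libraries.

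Library totals ran from 16250674 to 21559210 counts. *Rhoa*, which encodes a small GTPase of the actomyosin cytoskeleton, was at 481 ± 8.88 CPM in WT_PBS and 525 ± 5.28 in WT_CRE, and at 449 ± 45.1 in CKO_PBS and 502 ± 40.0 in CKO_CRE (CPM, counts scaled to library size, mean ± SD, n = 3), and was not called in any comparison. In whole lung the targeted gene therefore did not separate the genotypes. *Nxpe4* and *Alad*, chosen after their values were seen, did: *Nxpe4* was at 9.29 to 31.7 CPM in the 6 WT libraries and 1.44 to 3.23 CPM in the 6 CKO libraries. *Alad* was at 30.3 to 46.0 CPM in WT and 58.7 to 73.3 CPM in CKO. CKO_CRE replicate 2 stood apart from the rest of its group. Its counts differed from those of replicates 1 and 3 by a chi-square of 85.8 and 55.1 per gene, against 25.5 between replicates 1 and 3 and 4.58 to 28.6 between libraries within the other groups. At *Nxpe4* and *Alad* it was on the CKO side (1.64 and 70.2 CPM). Since these genes were chosen with its values known, this does not test its label. Claudin results that rest on CKO_CRE replicate 2 are given with and without it. By their Y-linked counts the 3 WT_PBS libraries were male, and the other groups held libraries of both sexes.

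Tight junctions close the gap between neighbouring cells of an epithelium or endothelium. Claudins polymerise into strands at the junction, and the set of claudins a cell makes decides whether the strand seals the gap or forms a pore for cations or anions. Most claudins end in a motif that binds the zonula occludens scaffold proteins, which tie the strands to actin. In lung, claudin-18 is the main claudin of alveolar epithelium, claudin-3 and claudin-4 are made by type 2 alveolar and airway cells, claudin-5 is the main claudin of endothelium, and claudin-7 and claudin-1 line airway cells.

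The start regions of 4 claudins are shown because their transcripts went different ways under CRE: *Cldn3* and *Cldn4* are neighbours on chromosome 5, 39280 bases apart, and only *Cldn4* was called, while *Cldn18* and *Cldn5* were the claudins with the highest counts and both fell. Each line gives the 250 bases before the annotated start from RefSeq (GRCm38.p6), 5′ to 3′ on the gene's strand, with capitals marking matches to the motifs named after them. The *Cldn3* window covers chr5:134985964-134986213 on the plus strand, *Cldn4* chr5:134946935-134947184 on the minus strand, *Cldn18* chr9:99717268-99717517 on the minus strand (the upstream of its 2 starts) and *Cldn5* chr16:18776597-18776846 on the plus strand.
Cldn3: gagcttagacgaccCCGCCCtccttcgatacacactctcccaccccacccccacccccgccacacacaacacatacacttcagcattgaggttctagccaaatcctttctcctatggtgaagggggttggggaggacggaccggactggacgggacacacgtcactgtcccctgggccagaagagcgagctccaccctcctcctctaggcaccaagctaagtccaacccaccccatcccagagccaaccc
Cldn4: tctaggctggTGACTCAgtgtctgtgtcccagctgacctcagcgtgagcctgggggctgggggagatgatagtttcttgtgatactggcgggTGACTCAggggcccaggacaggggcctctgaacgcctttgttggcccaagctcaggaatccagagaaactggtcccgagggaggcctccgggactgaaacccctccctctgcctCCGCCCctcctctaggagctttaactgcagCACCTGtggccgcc
Cldn18: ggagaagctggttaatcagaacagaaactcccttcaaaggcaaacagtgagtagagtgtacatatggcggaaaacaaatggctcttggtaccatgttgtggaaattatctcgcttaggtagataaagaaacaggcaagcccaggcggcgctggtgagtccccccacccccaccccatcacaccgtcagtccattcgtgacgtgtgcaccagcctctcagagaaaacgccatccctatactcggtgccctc
Cldn5: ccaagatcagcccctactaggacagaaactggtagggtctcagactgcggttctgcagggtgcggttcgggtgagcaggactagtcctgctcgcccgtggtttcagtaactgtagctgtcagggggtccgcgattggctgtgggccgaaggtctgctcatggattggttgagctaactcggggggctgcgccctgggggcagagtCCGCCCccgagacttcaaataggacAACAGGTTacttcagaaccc

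The motifs searched, on both strands, were AACCNGTT for grainyhead-like factors, CTCAAG or CAAGTG for NKX2-1, TGANTCA for AP-1, GGGCGG (the GC box), TATAAA (the TATA box), CAGGTG (the E-box bound by Snail factors), CCGGAA for ETS factors and ACAATG for SOX factors. The *Cldn4* window held AP-1 matches 240 and 158 bases before the start, a GC box at 44 bases and a Snail E-box at 14 bases. Its neighbour *Cldn3* held a GC box at 236 bases and none of the others. *Cldn5* held a grainyhead-like match at 20 bases and a GC box at 45 bases, and the upstream *Cldn18* window held no match. The window of the downstream *Cldn18* start, not printed, held an NKX2-1 match at 98 bases. These matches did not overlap one another. Among all 32851 promoters of the RefSeq table, 6.7% held an AP-1 match in such a window, 32.7% a GC box, 17.2% the Snail E-box and 1.8% the grainyhead-like motif. NKX2-1 motifs were found in 22.6%, TATA boxes in 12.4%, ETS motifs in 12% and SOX motifs in 10.7%. Entries were found for 9 of the 10 claudins, 14 in all, and *Cldn23* had none. A match describes letters in the window and not a bound site.

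The genes lie on 6 chromosomes (GRCm38, GENCODE M21). *Cldn3* (ENSMUSG00000070473, chromosome 5, 134986214 to 134987472), *Cldn4* (ENSMUSG00000047501, chromosome 5, 134945119 to 134946934) and *Cldn5* (ENSMUSG00000041378, chromosome 16, 18776847 to 18778262) each have a single annotated transcript. *Cldn18* (ENSMUSG00000032473) covers chromosome 9 from 99689461 to 99717267, and its counts sum over both starts. *Cldn1* (ENSMUSG00000022512) lies on chromosome 16 from 26356642 to 26371841, and *Cldn7* (ENSMUSG00000018569) on chromosome 11 from 69964779 to 69967885. *Cldn10* (ENSMUSG00000022132) runs on chromosome 14 from 118787908 to 118875489. *Cldn12* (ENSMUSG00000046798, 5489537 to 5514958) and *Cldn15* (ENSMUSG00000001739, 136966616 to 136975858) are also on chromosome 5, and *Cldn23* (ENSMUSG00000055976) is on chromosome 8 from 35824712 to 35826559. None has a near-identical copy in the annotation (98% or more over at least 200 bases). The closest matches were *Cldn7* with *Gm3889* (80.5% over 349 bases) and *Cldn3* with *Cldn4* (77.1% over 494 bases). Genes on the opposite strand overlap *Cldn18* and *Cldn3*, and these held 5 and 37 counts over all 12 libraries.

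In PBS lung the endothelial and alveolar claudins dominated. On a per-length scale (CPM per kb of exon), *Cldn5* led at 403 ± 9.18 in WT_PBS, followed by *Cldn18* at 192 ± 15.5 and *Cldn3* at 85.4 ± 3.15 (mean ± SD, n = 3). Next came *Cldn7* at 20.1 ± 0.52, *Cldn12* at 7.04 ± 0.32, *Cldn10* at 6.13 ± 0.17 and *Cldn15* at 5.13 ± 0.40. The lowest were *Cldn1* at 3.77 ± 0.14, *Cldn4* at 2.02 ± 0.07 and *Cldn23* at 1.47 ± 0.34. No neighbours in this order overlapped in WT_PBS. In CKO_PBS the order was the same, with overlap of *Cldn15* with *Cldn1* and of *Cldn1* with *Cldn4*. Both CRE groups kept *Cldn5*, *Cldn18*, *Cldn3* and *Cldn7* as the leading claudins, and *Cldn4*, at rank 9 under PBS, was at rank 5 by its mean. In CKO_CRE that rank rests on replicate 2: *Cldn4* was at 4.90, 27.7 and 4.66 CPM per kb, below *Cldn12* (5.76, 4.62 and 6.20) in replicates 1 and 3. In WT_CRE *Cldn18* and *Cldn3* overlapped (95.2 ± 8.79 and 83.2 ± 12.5 CPM per kb), as did every neighbouring pair from *Cldn12* to *Cldn1*. In CKO_CRE every neighbouring pair from *Cldn7* down to *Cldn1* overlapped.

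**Figure D1:**
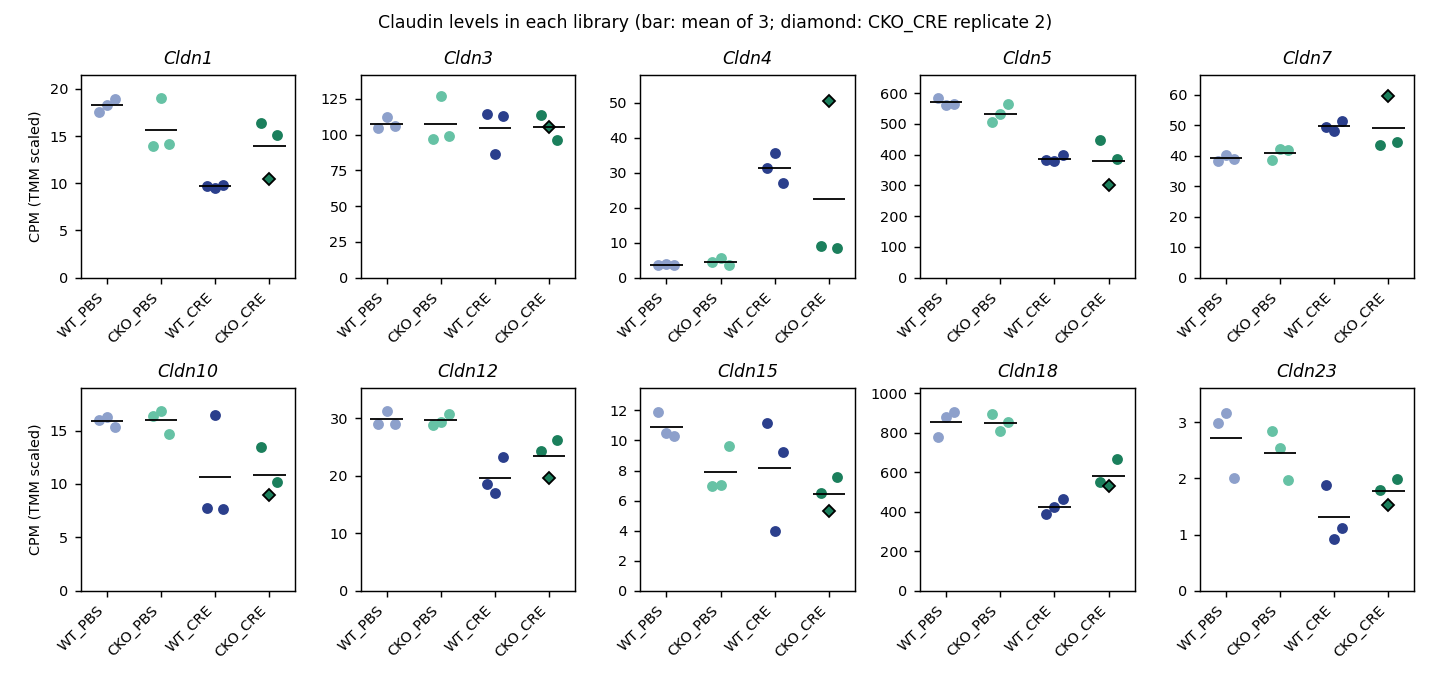
Level of each claudin in every library, in CPM scaled with TMM factors (vertical axes, each starting at 0), for WT_PBS, CKO_PBS, WT_CRE and CKO_CRE on the horizontal axes. Points are libraries, bars are means of 3, and the diamond is CKO_CRE replicate 2, which is the highest of all 12 libraries for *Cldn4* (50.4 CPM) and the lowest for *Cldn5* (301 CPM).

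In WT lung CRE lowered the main alveolar and endothelial claudins and raised *Cldn4* and, by less, *Cldn7*. Of the 10 claudins, 2 rose and 5 fell. A gene is called risen or fallen at an adjusted p below 0.05 in edgeR's quasi-likelihood test, with Benjamini-Hochberg adjustment over all 17473 tested genes. That test called 57.0% of all tested genes, 28.6% higher and 28.4% lower, so the count of 7 of 10 claudins is near the background. The median log2 fold change of the 10 claudins was -0.57, against 0.01 over all tested genes. In 7 of the 10 the libraries of the groups did not overlap, as in 68.5% of all tested genes.

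Among the alveolar claudins, *Cldn18* was at 776, 880 and 907 CPM under PBS and at 387, 421 and 465 CPM under CRE. Every CRE library was below every PBS library, and the log2 level fell by 1.01 ± 0.12 (2.01-fold lower, SE, adjusted p = 4.79e-05). *Cldn4*, whose protein is known to be induced in injured alveolar epithelium, was at 3.54, 3.78 and 3.71 CPM under PBS and 31.3, 35.6 and 27.1 CPM under CRE. It rose 8.51-fold without overlap, a log2 change of 3.09 ± 0.58 (adjusted p = 0.000925). *Cldn3*, a sealing claudin, was at 104, 112 and 106 CPM under PBS and 114, 86.7 and 113 CPM under CRE. Its groups overlapped and it was not called, with a log2 change of -0.04 and a 95% interval from -0.32 to 0.24.

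The endothelial claudin *Cldn5* was at 586, 562 and 566 CPM under PBS and at 384, 379 and 399 CPM under CRE. It fell by 0.56 ± 0.12 on the log2 scale (1.48-fold lower, adjusted p = 0.00249), with no overlap between the groups.

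Among claudins of airway and other epithelium, *Cldn1* was at 17.6, 18.3 and 18.9 CPM under PBS and at 9.71, 9.45 and 9.84 CPM under CRE. The groups were far apart relative to their spread, and *Cldn1* fell by 0.92 ± 0.17 (1.89-fold lower, adjusted p = 0.000868). *Cldn7*, which sits along the lateral membrane as well as at the junction, went from 38.2, 40.2 and 38.9 CPM to 49.5, 48.1 and 51.5 CPM. The rise of 1.27-fold was small but free of overlap (log2 0.34 ± 0.11, adjusted p = 0.0193). *Cldn7* was no longer called when WT_CRE replicate 3 (adjusted p = 0.0570), WT_PBS replicate 1 (0.0627) or WT_PBS replicate 3 (0.0560) was left out, or with sex as a covariate (0.0989). *Cldn10*, a pore-forming claudin, was at 16, 16.3 and 15.4 CPM under PBS and at 7.76, 16.5 and 7.70 CPM under CRE. WT_CRE replicate 2 lay with the PBS libraries while the others were lower, and *Cldn10* was not called (log2 -0.57 ± 0.26, adjusted p = 0.0742). Without that library it was called at -1.04 ± 0.17 (adjusted p = 0.000972), and limma-voom called it over all libraries (0.00096).

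*Cldn12*, a claudin that lacks the usual scaffold-binding tail, was at 29.1, 31.3 and 28.9 CPM under PBS and at 18.5, 16.9 and 23.3 CPM under CRE. It fell by 0.60 ± 0.13 (1.52-fold lower, adjusted p = 0.00236) without overlap. *Cldn23* was the least abundant member, at 2.98, 3.17 and 2.0 CPM under PBS and 1.89, 0.93 and 1.12 CPM under CRE. It fell by 1.06 ± 0.31 (2.08-fold lower, adjusted p = 0.0115), but the nearest libraries of the groups were 2.0 and 1.89 CPM, and with sex as a covariate it was not called (adjusted p = 0.0520). *Cldn15*, known as a cation pore, was at 11.9, 10.5 and 10.3 CPM and at 11.2, 3.99 and 9.25 CPM. The CRE libraries spread widely and it was not called (log2 -0.43 ± 0.29, adjusted p = 0.233).

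In CKO lung under CRE *Cldn4* rose and *Cldn18* and *Cldn5* fell, so that 1 claudin was called higher and 2 lower. Over all tested genes 39.1% were called, 20.6% higher and 18.5% lower. The median log2 fold change of the 10 claudins was -0.31 against 0.00 over all genes, and 6 of 10 did not overlap between groups, against 49.0% of all tested genes.

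*Cldn18* was at 893, 807 and 854 CPM in CKO_PBS and at 550, 531 and 668 CPM in CKO_CRE. It fell by 0.55 ± 0.12 (1.46-fold lower, adjusted p = 0.00389) without overlap. *Cldn5* went from 506, 533 and 564 CPM to 449, 301 and 387 CPM. It fell by 0.50 ± 0.12 (1.41-fold lower, adjusted p = 0.00914), and no CRE library reached the lowest PBS library. Without CKO_CRE replicate 2 *Cldn5* fell by 0.35 ± 0.08 (1.28-fold lower, adjusted p = 0.00773) and *Cldn18* by 0.48 ± 0.11 (0.00695). *Cldn4* was at 4.50, 5.45 and 3.65 CPM in CKO_PBS and at 8.89, 50.4 and 8.47 CPM in CKO_CRE. All CRE libraries were higher than all PBS libraries, but replicate 2 was over 5 times the others.

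The fitted *Cldn4* rise in CKO was 4.97-fold (log2 2.31 ± 0.57, adjusted p = 0.00786). Without CKO_CRE replicate 2 it was 1.91-fold (log2 0.94 ± 0.17, adjusted p = 0.00170). The direction and call were kept while the size fell. The calls of *Cldn4* and *Cldn5* were lost when the fit held only the 2 CKO groups (adjusted p = 0.0530 and 0.0656).

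The other 7 claudins were not called in CKO. *Cldn7* was at 38.4, 42.1 and 41.9 CPM under PBS and 43.4, 59.4 and 44.3 CPM under CRE (log2 0.27 ± 0.11, adjusted p = 0.0759). It was called without CKO_CRE replicate 1 or replicate 3 (adjusted p = 0.0287 and 0.0493). Without CKO_CRE replicate 2, its highest library, the rise was only 0.11 ± 0.07 (adjusted p = 0.31). *Cldn12* went from 28.8, 29.3 and 30.8 CPM to 24.3, 19.5 and 26.2 CPM, without overlap (log2 -0.34 ± 0.13, adjusted p = 0.0571), and was called without WT_CRE replicate 3 (0.0348) or CKO_CRE replicate 3 (0.0363). *Cldn10* was at 16.4, 16.8 and 14.7 CPM and at 13.5, 8.94 and 10.2 CPM (log2 -0.55 ± 0.26, adjusted p = 0.105), and was called without WT_CRE replicate 2 (0.0143), a library outside the groups compared that enters through the shared spread. Over all 12 libraries these 3 claudins were near the threshold. Without CKO_CRE replicate 2 *Cldn12* was at -0.23 ± 0.12 (adjusted p = 0.187) and *Cldn10* at -0.43 ± 0.27 (0.266).

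*Cldn1* was at 13.9, 19.1 and 14.1 CPM in CKO_PBS and at 16.4, 10.4 and 15.1 CPM in CKO_CRE. The groups overlapped, and the log2 change was -0.17 ± 0.17 (adjusted p = 0.451). Without CKO_CRE replicate 2 the *Cldn1* change was 0.005 ± 0.14 (adjusted p = 0.985). *Cldn15* was at 6.98, 7.02 and 9.61 CPM and at 6.49, 5.32 and 7.58 CPM (log2 -0.28), *Cldn23* at 2.84, 2.54 and 1.97 CPM and at 1.80, 1.52 and 2.0 CPM (log2 -0.46). *Cldn3* was at 97.0, 127 and 98.7 CPM and at 113, 105 and 96.1 CPM (log2 -0.04 ± 0.13).

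**Figure D2:**
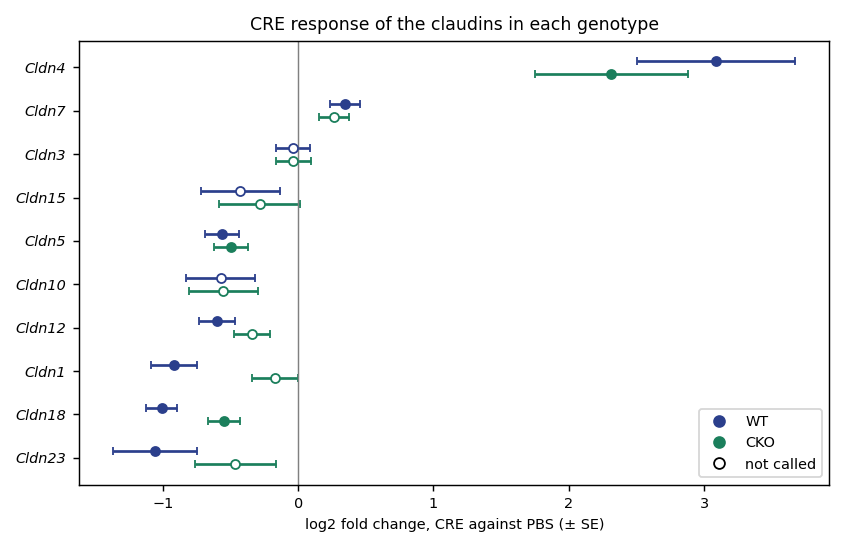
Log2 fold change of each claudin, CRE against PBS, with its SE (horizontal axis), in WT (blue) and CKO (green). Filled points were called in edgeR at an adjusted p below 0.05, and *Cldn4*, *Cldn18* and *Cldn5* are filled in both genotypes.

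Without CRE no claudin was called between the genotypes. This held for CKO_PBS against WT_PBS in edgeR, DESeq2 and limma-voom (0 of 10 in each, with 0.519% of all genes called in DESeq2 and 0.836% in limma-voom), and 0 of 10 had an unadjusted p below 0.05 in edgeR. In edgeR 0.109% of all tested genes were called and 5.32% had an unadjusted p below 0.05. Log2 differences ran from -0.47 ± 0.29 for *Cldn15* to 0.30 ± 0.59 for *Cldn4*. *Cldn15* was the 1 member whose libraries did not overlap, at 10.3 to 11.9 CPM in WT and 6.98 to 9.61 CPM in CKO, as in 15.2% of all tested genes. For *Cldn18* the difference was -0.01 with a 95% interval from -0.26 to 0.25, and for *Cldn5* -0.10 with an interval from -0.37 to 0.17. *Cldn18* lies 8.59 Mb from *Rhoa* on chromosome 9, the chromosome that holds 11 of the 19 genes called between the genotypes under PBS. The share of all tested genes on that chromosome was not counted, and a link of this position to *Cldn18* was not tested.

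Under CRE the CKO libraries had more *Cldn18* and *Cldn1* RNA than the WT libraries, but in the main edgeR fit no claudin passed the threshold. edgeR called 0 of 10 members, with 2 at an unadjusted p below 0.05, DESeq2 called 1 and limma-voom with library quality weights called 4. In edgeR 0.916% of all tested genes were called and 18.5% had an unadjusted p below 0.05. DESeq2 called 4.49% of genes and limma-voom 43.8%.

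All 3 CKO_CRE libraries had more *Cldn18* (550, 531 and 668 CPM) than any WT_CRE library (387, 421 and 465 CPM). The log2 difference was 0.46 ± 0.12, with an unadjusted p of 0.00196 and an adjusted p of 0.0854. *Cldn18* was called in DESeq2 (adjusted p = 0.00543) and limma-voom (8.82e-05), and in edgeR with no low-count filter (0.0442). *Cldn1* was at 16.4, 10.4 and 15.1 CPM in CKO_CRE and 9.71, 9.45 and 9.84 CPM in WT_CRE. Replicate 2 was just above the WT range while the others were well above it, and the difference was 0.53 ± 0.17 (adjusted p = 0.157). These were the 2 members whose libraries did not overlap, as in 15.1% of all tested genes.

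On *Cldn4* the CKO_CRE libraries split. Replicates 1 and 3, at 8.89 and 8.47 CPM, were below all WT_CRE libraries (27.1 to 35.6 CPM), and replicate 2, at 50.4 CPM, was above them. Over all libraries the difference was -0.47 ± 0.52 (adjusted p = 0.630). *Cldn7* showed the same split, with 43.4 and 44.3 CPM below and 59.4 CPM above the WT_CRE range of 48.1 to 51.5 CPM. For *Cldn5* the split ran the other way in part, with 449 CPM above and 301 CPM below the WT_CRE range, and the third library within it.

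Leaving out CKO_CRE replicate 2 changed the calls for 4 claudins. *Cldn18* was then higher in CKO by 0.52 ± 0.11 (adjusted p = 0.00480), *Cldn1* by 0.71 ± 0.14 (0.00373) and *Cldn12* by 0.37 ± 0.12 (0.0407). *Cldn4* was lower by a log2 value of -1.85 ± 0.17 (3.60-fold, adjusted p = 4.7e-05). That fit called 28.5% of 17931 tested genes, 15.8% higher and 12.7% lower, so the claudin calls came with a shift of many genes. *Cldn3*, *Cldn5*, *Cldn7*, *Cldn10*, *Cldn15* and *Cldn23* were not called in either fit. No other single library, left out in turn, gave a claudin call between the genotypes under CRE.

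**Figure D3:**
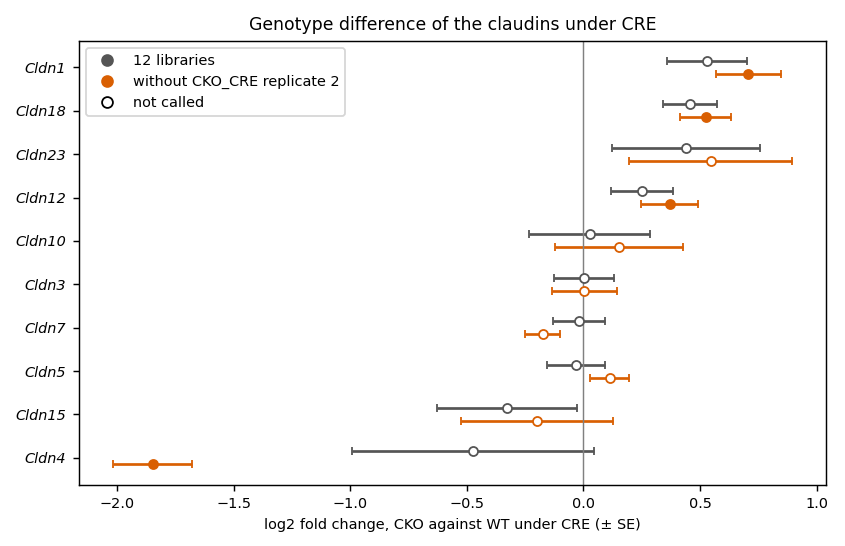
Log2 fold change of each claudin, CKO against WT under CRE, with its SE (horizontal axis), over all 12 libraries (grey) and without CKO_CRE replicate 2 (orange). Filled points were called; none is filled over 12 libraries, and *Cldn1*, *Cldn18*, *Cldn12* and *Cldn4* are filled without that library.

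Whether the claudins answered CRE differently in WT and CKO was tested as an interaction. edgeR called 0 of 10 claudins, with 2 at an unadjusted p below 0.05, DESeq2 called 0 and limma-voom 4. Over all tested genes edgeR called 0.0458%, with 10.3% at an unadjusted p below 0.05, DESeq2 0.647% and limma-voom 25.0%. The CRE response of *Cldn1* was less negative in CKO by 0.75 ± 0.24 (adjusted p = 0.399), and that of *Cldn18* by 0.46 ± 0.16 (adjusted p = 0.412). For *Cldn4* the difference was -0.78 ± 0.79. For *Cldn5* it was 0.07 with a 95% interval from -0.32 to 0.45, and for *Cldn3* 0.00 with an interval from -0.39 to 0.40. Without CKO_CRE replicate 2 the interaction was called for *Cldn1* (0.92 ± 0.19, adjusted p = 0.00954), *Cldn18* (0.53 ± 0.15, 0.0342) and *Cldn4* (-2.15 ± 0.23, 0.000479), in a fit that called 14.8% of all tested genes. limma-voom with library quality weights, over all 12 libraries, called *Cldn1* (0.92 ± 0.16, adjusted p = 0.00293), *Cldn18*, *Cldn12* and *Cldn4*. Whether *Cldn1*, called in WT and not in CKO, responded differently in the genotypes thus depended on the tool and on CKO_CRE replicate 2.

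The make-up of the claudin pool moved with CRE. Summed over all claudins of the table, the level per kb was 729 ± 8.32 in WT_PBS and 513 ± 22 in WT_CRE, and 701 ± 18.7 in CKO_PBS and 538 ± 44.9 in CKO_CRE (mean ± SD, n = 3). In WT every CRE library (493 to 536) was below every PBS library (720 to 735), and the same held in CKO (490 to 578 against 680 to 716). *Cldn5* held 55.3 ± 1.89% of this sum in WT_PBS and 53.4 ± 0.86% in WT_CRE. *Cldn18* went from 26.3 ± 1.84% to 18.6 ± 1.33%, while the share of *Cldn3* went from 11.7 ± 0.37% to 16.2 ± 2.0% with its own level not called. *Cldn4* went from 0.28 ± 0.01% to 3.38 ± 0.60%, and *Cldn7* from 2.75 ± 0.06% to 4.98 ± 0.04%.

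In CKO the share of *Cldn18* was 27.3 ± 1.97% under PBS and 24.4 ± 3.05% under CRE. The *Cldn4* share was 0.36 ± 0.07% in CKO_PBS, and 0.85%, 5.66% and 0.85% in the 3 CKO_CRE libraries. *Cldn5* was at 54.8%, 43.3% and 49.97% in those libraries. Shares were compared without a test, since 3 libraries against 3 cannot give an exact permutation p below 0.10. They also move together by construction, because each is a part of one sum.

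**Figure D4:**
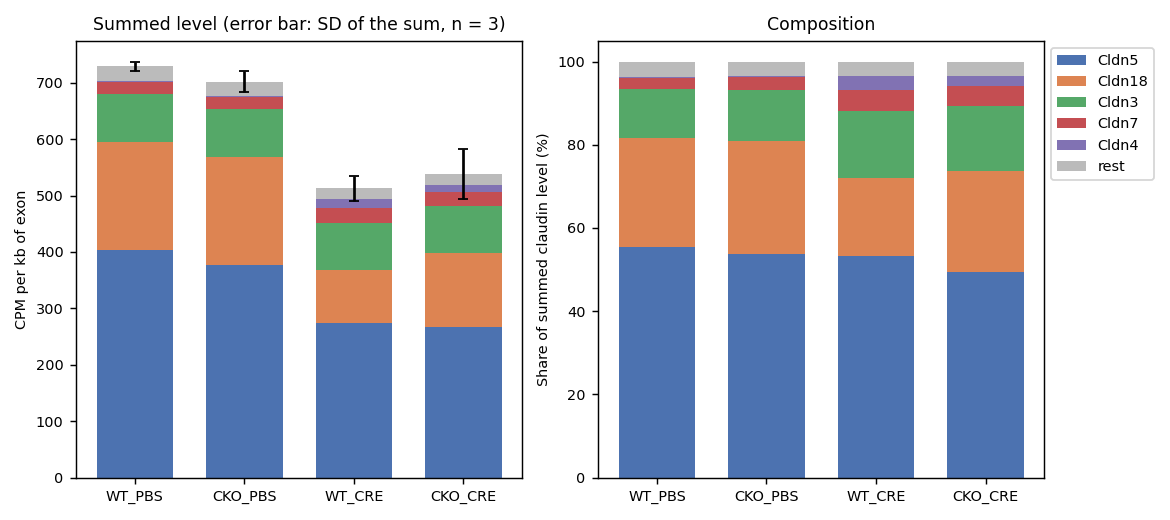
Summed claudin level in CPM per kb of exon (left, bars stacked by claudin, error bar the SD of the sum, n = 3) and the share of each claudin in that sum in percent (right), for the 4 groups. The sum is 729 in WT_PBS and 513 in WT_CRE, and the *Cldn4* share goes from 0.28% to 3.38%.

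Whole lung mixes all its cell types, and in such samples fewer cells of a type and less RNA per cell cannot be told apart. Marker lists were therefore set beside the claudins, and their counts in WT stand against 28.6% of all tested genes called higher and 28.4% lower. In WT, CRE lowered 11 of 12 type 1 alveolar markers (median log2 -1.31), among them *Akap5* (-2.30), *Rtkn2* (-2.28) and *Ager* (-0.91), and raised 1, *Pdpn* (0.51). *Cldn18* stood at -1.01 beside them. Of 12 type 2 alveolar markers 3 rose and 4 fell, near those shares (median -0.08), with *Sftpc*, a surfactant protein, at -0.62. Of 9 pan-epithelial markers 4 rose and 1 fell (median 0.08), and *Epcam*, which binds claudin-7, rose by 0.46 ± 0.18 (adjusted p = 0.0480).

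Endothelial markers fell in 9 of 12 cases (median -0.64), led by *Tek* (-1.56) and *Cdh5* (-1.40), the cadherin of endothelial junctions, beside the *Cldn5* change of -0.56. Club cell markers fell in 8 of 9 tested cases (median -2.10), with *Scgb1a1* at -2.10, and ciliated cell markers in 9 of 10 (median -0.80). Mesothelial markers fell in 5 of 8 (median -0.76), with *Msln* not called (-0.14), and cardiac muscle markers in 8 of 10 (median -1.21). All 10 immune markers rose (median 1.75), and their summed level was 710 to 790 CPM under PBS and 1935 to 2318 CPM under CRE. All 8 goblet cell markers rose (median 2.90), as did 3 of 5 tested basal cell markers, while *Krt5* and *Krt17*, the keratins that define basal cells, were at or below 0.35 CPM in every library. CPM is relative to the library total, and the part of these shifts in the claudin changes was not tested.

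*Cldn4* was also set beside markers of the *Krt8*-high transitional alveolar state, a damage-associated state between type 2 and type 1 cells. In WT_CRE 10 of these 12 markers rose (median 0.83), among them *Tnip3* (3.40), *Lgals3* (2.46) and *Sfn* (1.80), and *Krt8* rose by 0.68. The list shares *Krt8* and *Krt19* with the pan-epithelial list, and macrophages also express *Lgals3*. Within CKO_CRE *Lgals3* was at 202, 737 and 280 CPM, *Sfn* at 37.1, 111 and 32.6 CPM and *Krt8* at 252, 422 and 244 CPM. Replicate 2 was the highest in each, as for *Cldn4*. The list's median per library, relative to WT_PBS, was 0.75 to 0.81 in WT_CRE and 0.47, 1.25 and 0.41 in CKO_CRE. The immune list had its highest CKO_CRE value in replicate 2 as well (0.70, 1.87 and 1.04). So did the pan-epithelial list (0.12, 0.58 and 0.05, against 0.06 to 0.10 in WT_CRE). This pattern was thus not particular to the transitional list.

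Other lists also varied between the CKO_CRE libraries. Relative to WT_PBS, the immune list was at 1.55 to 1.86 in WT_CRE and at 0.70, 1.87 and 1.04 in CKO_CRE. Type 1 alveolar markers were at -1.51 to -1.20 in WT_CRE and at -0.64, -1.06 and -0.36 in CKO_CRE, so that all 3 CKO_CRE libraries lay above WT_CRE. Of the 12, 1, the water channel gene *Aqp5*, was called higher in CKO under CRE (log2 0.40 ± 0.08, edgeR adjusted p = 0.0438). Over all tested genes 0.549% were called higher in that comparison. Club cell markers were at -2.16 to -1.95 against -0.97, -2.26 and -1.48. Endothelial markers were at -0.68 to -0.59 against -0.41, -0.70 and -0.41, and goblet cell markers at 2.72 to 2.77 against 2.16, 2.49 and 2.05, all below WT_CRE. *Cldn18* in replicate 2 was above all WT_CRE libraries, as the type 1 list was, whereas its *Cldn1*, *Cldn4* and *Cldn5* were closer to WT_CRE or beyond it. The part of these markers in the genotype difference of the claudins was not tested.

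**Figure D5:**
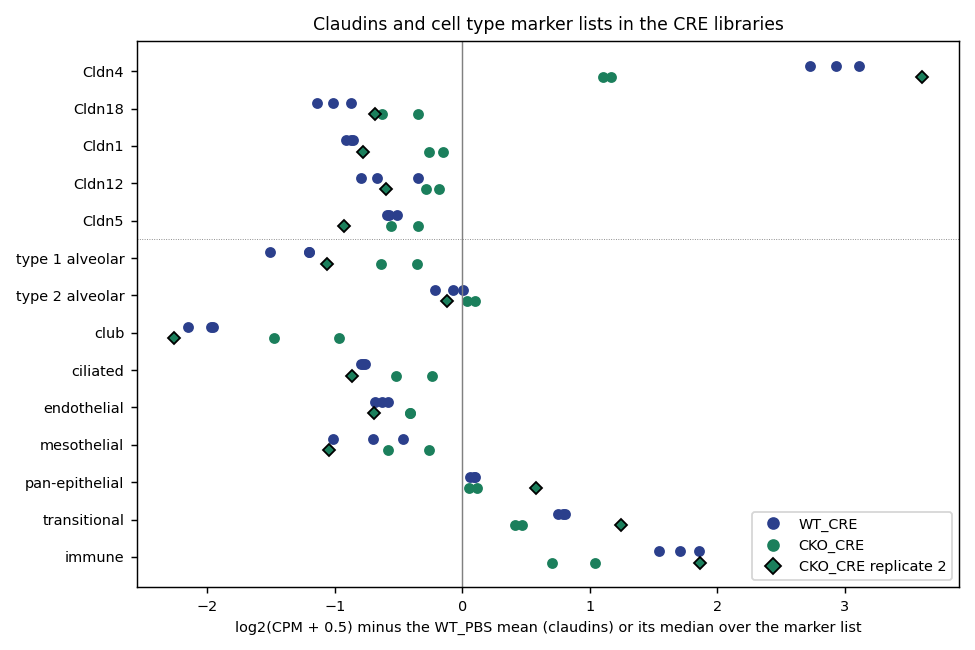
Log2 level of 5 claudins and the median of each cell type marker list in the 6 CRE libraries, relative to the WT_PBS mean (horizontal axis, log2(CPM + 0.5)), for WT_CRE (blue), CKO_CRE (green) and CKO_CRE replicate 2 (diamond). The diamond lies at 1.25 for the transitional list and 1.87 for the immune list, above or at the top of the WT_CRE points.

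The rest of the tight junction fell more than it rose. Of 13 other membrane proteins of the junction 0 rose and 8 fell in WT under CRE (median log2 -0.44), against 28.4% of all tested genes called lower. *Ocln*, the strand protein occludin, fell by 1.11 ± 0.17 (adjusted p = 0.000228), and the adhesion molecules *Jam2* (-0.84) and *Ildr1* (-0.68), the latter of tricellular contacts, were also called. Of 17 scaffold and polarity proteins 12 fell and 2 rose (median -0.88). The falls were led by *Magi3* (-1.89) and the polarity genes *Prkci* (-1.43) and *Pard6b* (-1.29), and *Tjp1*, the zonula occludens scaffold ZO-1, was at -1.20 ± 0.17. *Tjp3*, the epithelial ZO-3, rose by 0.80 and *Pard6a* by 0.54.

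In CKO 4 of the 13 membrane proteins fell and 0 rose, and 8 of the 17 scaffold proteins fell and 2 rose, against 18.5% of all tested genes called lower and 20.6% higher. *Ocln* fell by 0.59 ± 0.17 (adjusted p = 0.0149), *Tjp1* was at -0.65 ± 0.17 (0.0113) and *Tjp3* rose by 1.03. *Tjp3* and *Cldn4* thus rose in both genotypes while *Tjp1*, *Ocln* and *Cldn18* fell in both. Between the genotypes no gene of these lists was called under PBS or CRE in the main edgeR fit over the 12 libraries. In that fit *Ocln* differed by 0.46 ± 0.17 (adjusted p = 0.192) and *Tjp1* by 0.42 ± 0.17 (0.230) under CRE.

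Proteins that bind, cut or stabilise claudins were mixed. In WT 4 of 12 rose and 5 fell (median 0.15), counts near the 28.6% and 28.4% of all tested genes. The membrane protease *St14* (0.43), which cleaves *Epcam* protein, rose. *Lnx1* (-0.74), a ubiquitin ligase for claudins, *Prss8* (-0.72), a membrane-anchored protease, and *Epha2* (-0.49), a receptor kinase, fell. *St14* rose in CKO as well (0.43), where 2 of 12 rose and 3 fell, counts near the 20.6% and 18.5% of all tested genes.

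Of 14 tested transcription factors known to act on claudin genes, 2 rose and 8 fell in WT (median -0.52), against 28.6% of all tested genes called higher and 28.4% lower. In CKO 0 rose, 6 fell and 8 were not called, against 20.6% and 18.5% of all tested genes. *Grhl3* (-2.30) and *Grhl2* (-0.62 ± 0.16, adjusted p = 0.00658), grainyhead-like activators of epithelial junction genes, fell in WT, as did *Klf4* (-1.63) and the repressor *Snai2* (-1.20). *Elf3*, an epithelial ETS factor, rose by 0.91 and *Snai1*, a repressor that binds E-boxes, by 0.81. *Nkx2-1*, the lung identity factor, was not called in either genotype (-0.10 ± 0.08 in WT and -0.16 ± 0.08 in CKO). *Sox18* and *Erg* on this list are endothelial markers, and *Grhl2* and *Elf3* pan-epithelial ones.

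Of the claudins beyond the 10, *Cldn2*, *Cldn8* and *Cldn34c1* were tested and all 3 were called in both genotypes. Over all tested genes 57.0% were called for CRE in WT and 39.1% for CRE in CKO. *Cldn2*, a pore for cations and water, in WT was at 0.76, 0.60 and 0.41 CPM under PBS and 4.79, 5.25 and 4.38 CPM under CRE. It rose by 3.00 on the log2 scale (adjusted p = 0.000229), close to *Cldn4*, and by 1.20 in CKO (0.0323), where PBS libraries held 0.72, 2.45 and 2.35 CPM and CRE libraries 3.85, 6.14 and 2.82 CPM. *Cldn8* was at -2.50 in WT and -1.62 in CKO, and *Cldn34c1* at -1.25 and -0.81. These claudins together held under 1% of the summed level per kb in every library.

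The genes closest in pattern to each claudin were found among 13525 protein-coding genes, by the root mean square distance between log2(CPM + 0.5) profiles over the 12 libraries, each centred on its mean. The genes nearest to *Cldn18* were *Fgfrl1* (distance 0.06), *Hs2st1* (0.08) and *Scnn1a* (0.09), an epithelial sodium channel subunit, where the *Cldn18* profile itself varied by 0.44. For *Cldn4*, with its own variation of 1.35, they were *Plau* (0.26), the urokinase gene, and the leukocyte genes *Cd52* (0.29) and *Itgam* (0.29). *Cd52* and *Itgam* are on the immune list. None of the genes named for *Cldn4* is on the transitional list, but so few genes cannot show whether *Cldn4* followed that state. *Plau* had log2 changes of 2.72 in WT and 2.16 in CKO, beside 3.09 and 2.31 for *Cldn4*. *Cldn1* lay nearest to *Wdr78* (0.10) and *Dnali1* (0.11), both axonemal dynein-related genes of cilia, and to *Tmprss2* (0.11).

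For *Cldn5* the nearest were *St7l* (0.04), *Ubn2* (0.05) and *Atxn2* (0.06), for *Cldn12* *Kdm5a* (0.05), *Atf6* (0.06) and *Myo1c* (0.06), and for *Cldn7* *Thap7* (0.06), *Arl8b* (0.06) and *Hip1r* (0.06). None of the genes named for *Cldn5* is on the endothelial list, but so few genes cannot show whether *Cldn5* followed the endothelial markers. The distance also counts the size of a change, so markers that moved the same way by another amount lie further off. Whether *Cldn5* followed those markers was not tested. *Cldn10* (nearest *Pm20d1*, 0.17), *Cldn15* (*Scoc*, 0.20) and *Cldn23* (*Prdm16*, 0.16) had no partner as close, and *Cldn3*, whose own variation was 0.14, was nearest to *Slc35e4* (0.08). These distances describe the 12 libraries, which share treatment, depth and composition.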

How the data were processed

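Poly(A) RNA from whole mouse lung was sequenced, per the labels' protocols, and the deposited values are whole-number read counts for 54532 Ensembl identifiers in 12 libraries, 3 in each of 4 groups. The tools named in the submitters' processing notes are fastp and STAR, with the build mm10. How reads were counted, strand setting and annotation included, is not given in the sources used here. Totals per library were 16250674 to 21559210 counts. GENCODE M21 matched 54495 identifiers.

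The quasi-likelihood F test of edgeR 4.0.16 in R 4.3.3 was used on all 12 libraries, with TMM factors, filterByExpr and a design of 4 group means. Benjamini-Hochberg adjustment covered all 17473 tested genes, with a threshold of 0.05. The common biological coefficient of variation came to 17.4%. SE is the log2 fold change divided by the root of F. CPM used TMM-scaled totals, and levels per kb used the union of annotated exons. In counts drawn for these genes with 200 changed, the test recovered 67% of 2-fold and 14% of 1.5-fold changes for CRE in WT. It recovered 69% and 8% for genotype under PBS, 74.5% and 10% for genotype under CRE, and 38.5% and 0% for the interaction. Recovery depends on the share of genes changed. In the data 57.0% of tested genes were called for CRE in WT, so the drawn rates do not carry over to that comparison. The draws also gave each gene the same spread in all groups, without the wider spread of CKO_CRE. Rates for comparisons with CKO_CRE therefore do not carry over either.

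Alternatives were DESeq2 size factors, library totals only, DESeq2 1.42.0, limma-voom (limma 3.58.1) with quality weights, sex as a covariate, no low-count filter, only the groups compared, a block for the replicate number, each library left out in turn, and the longest transcript as length. Transcripts were compared with blastn 2.17.0. The claudins and the lists were chosen with earlier results of these data known. Named list genes are the called members with the largest change, up to 3 in each direction per list and contrast, and a set of 12 junction and cell type genes with *Rhoa*. A gene that the rule would name is not reported here. The nearest 3 genes in pattern had a mean of at least 1 CPM. No set test was run.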

Additional observations from a re-analysis of the deposited data

How the results depend on the processing

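Over the 20 alternatives no claudin's called direction reversed. The claudin counts kept their value for CKO against WT under PBS (0 called). For CRE in WT, sex as a covariate left 1 claudin higher. With only the groups compared, CRE in CKO gave 0 claudins higher, 1 lower and 3812 genes, and the genotype comparisons gave 74 genes under PBS and 29 under CRE. Genotype under PBS gave 108 genes in DESeq2, 146 in limma-voom and 89 with no low-count filter, against 19. Genotype under CRE gave 1 claudin higher and 799 genes in DESeq2, 1 higher and 691 genes with no low-count filter, and 3 higher, 1 lower and 7645 genes in limma-voom, against 160 genes. The interaction called 8 genes, and 119 in DESeq2, 81 with no low-count filter, 5 with library totals only, 2 with sex as a covariate, 0 with the replicate block, and 4371 with 3 claudins higher and 1 lower in limma-voom. The causes were not tested.

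With 1 library left out, CRE in WT gave 1 to 2 claudins higher, 5 to 6 lower and 8529 to 10869 genes, and CRE in CKO 1 to 2 higher, 2 to 3 lower and 4767 to 7778 genes. Genotype under PBS gave 12 to 53 genes. Genotype under CRE gave 0 to 3 claudins higher, 0 to 1 lower and 38 to 5112 genes, and the interaction 0 to 2 higher, 0 to 1 lower and 0 to 2660 genes, the highest of each without CKO_CRE replicate 2.

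Same-numbered libraries of different groups deviated together with correlations of -0.02 to 0.24, above 0.1 in 5 of 18 pairs. Each library was compared with the 3 of the other group, and 11 of 18 correlated best with their own number. Whether that exceeds chance was not tested, so these values do not settle whether the numbers mark pairs. The main fit did not pair them. With the replicate block, *Cldn12* was called lower in CKO under CRE (adjusted p = 0.0424 in edgeR), and all genes called were 9919, 6999, 17 and 151 for CRE in WT, CRE in CKO, and genotype under PBS and CRE. *Cldn23*, at 0.93 to 3.17 CPM, is the claudin most limited by depth. The claudin order per kb was unchanged with the longest transcript as length.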
